A study of Mus musculus with 6 samples.

Results

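The microRNAs of the miR-23/24/27 clusters were followed across mouse embryoid bodies with 3 forms of human BRCA1. Members were the mouse probes, control spots left out, whose description on the array names mmu-miR-23a, mmu-miR-23b, mmu-miR-24, mmu-miR-27a or mmu-miR-27b, written without the species prefix from here on. This gave 5 of the 334 mouse microRNA probes and 20 of the 1336 mouse spots on each array, with 4 spots per probe. All 5 were among the 294 probes bright enough to be tested.

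Embryoid bodies are the aggregates in which embryonic stem cells start to differentiate. They were grown from mouse stem cells of strain 129S7/SvEv Brd-Hprt b-m2, plated on gelatin beforehand to take out the feeder cells, and were collected on day 7. The RQ group had human BRCA1 with the missense change R1699Q, the MI group had human BRCA1 with M1652I, and the WT group had wild-type human BRCA1. Each group had 2 samples. The labels name no further agent, and they give neither the state of the mouse Brca1 gene nor the number of stem cell clones behind a group. They call the samples of a group biological replicates without saying whether these came from separate cultures, so the p-values rest on the spread within pairs of samples that may be technical repeats. Each sample was hybridised to a 2-colour array with its own RNA in Cy3, and RNA of wild-type embryoid bodies in Cy5 served as the common reference on all 6 arrays. Dyes were not swapped.

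The members come from a pair of gene clusters. In each, one hairpin of the miR-23, one of the miR-27 and one of the miR-24 family are cut from a shared primary transcript, and the mature microRNA then lowers the output of messenger RNAs that pair with its seed. The family is known from endothelial, muscle and fat cells. In human B cells the MYC protein represses miR-23a and miR-23b, which target glutaminase, while miR-27 is known for restraining fat cell differentiation and miR-24 for lowering the histone variant H2AX, part of the DNA damage response in which BRCA1 also acts.

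The a cluster lies on the plus strand of chromosome 8 (GRCm38.p6, RefSeq), where Mir23a (chr8:84208518-84208592), Mir27a (chr8:84208672-84208758) and Mir24-2 (chr8:84208815-84208921) span 404 bases with no other gene than Mir3074-2 annotated there. The b cluster lies on the plus strand of chromosome 13, where Mir23b (chr13:63300484-63300557), Mir27b (chr13:63300712-63300784) and Mir24-1 (chr13:63301208-63301275) span 792 bases. Mir3074-1 is annotated in the same stretch. The b cluster falls within the bounds of the aminopeptidase gene Aopep (chr13:62964893-63326096). Both miR-24 hairpins give the same mature microRNA, so the miR-24 probe cannot tell the clusters apart.

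The mature sequences in RefSeq are shown because the a and b copies are nearly identical. Capitals mark the seed, bases 2 to 8 from the 5′ end.
miR-23a: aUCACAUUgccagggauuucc
miR-24: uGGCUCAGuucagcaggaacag
miR-27a: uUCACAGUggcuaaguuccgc
miR-27b: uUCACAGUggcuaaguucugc
These stand at chr8:84208563-84208583 for miR-23a, at both chr8:84208875-84208896 and chr13:63301251-63301272 for miR-24, at chr8:84208727-84208747 for miR-27a and at chr13:63300760-63300780 for miR-27b. miR-27a and miR-27b share their seed and differ by C19U, counted from the 5′ end of miR-27a to miR-27b. The mature miR-23b is named only.

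The probes of the a and b copies differ at 1 base of 60. They are given 5′ to 3′, with the differing base in capitals. The first bases are the complement of the microRNA and the rest is a tail shared by these 4 probes.
miR-23a probe: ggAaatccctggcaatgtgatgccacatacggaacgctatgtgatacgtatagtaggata
miR-23b probe: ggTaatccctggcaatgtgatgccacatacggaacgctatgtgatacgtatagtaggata
miR-27a probe: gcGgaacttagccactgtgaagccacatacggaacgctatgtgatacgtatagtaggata
miR-27b probe: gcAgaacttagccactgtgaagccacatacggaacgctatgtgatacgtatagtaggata
From the a probe to the b probe the change is A3T for miR-23 and G3A for miR-27, counted from the probe's 5′ end. How much of each copy's signal came from the other copy was not tested, so the a and b values are those of the probes and not of separately measured microRNAs.

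All 120 member spots over the 6 arrays were well above background in both channels and none was saturated. The arrays had 241 to 255 mouse probes above background in Cy3. The mean net Cy3 signal of negative control spots was 93 and 103 for RQ and between 43.8 and 59.4 for MI and WT. Of 12 listed stem cell microRNAs from the miR-290 and miR-302 clusters, 7 were on the array and all 7 were above background in Cy3. All arrays were on 1 slide, where WT filled positions in one row and the mutants in another, so slide row and wild-type against mutant BRCA1 cannot be told apart. RQ and MI share a row. RNA came from whole embryoid bodies, in which fewer cells that make a microRNA and less of it per cell cannot be told apart.

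The main values are log2 ratios of Cy3 over Cy5 after a background correction and a loess curve, which removes the trend of the ratio with brightness within an array. Calls were made in limma where p, adjusted over all 294 tested probes, was under 0.05. As the reference RNA was the same on all arrays, a ratio serves for comparing groups, and no ratio is taken as a distance from wild type.

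In RQ embryoid bodies both miR-27 copies fell against WT embryoid bodies and also against MI embryoid bodies, and they did so under each of the 4 scalings used. The miR-23 copies and miR-24 were called lower than in WT only with the loess ratio. MI embryoid bodies had 1 call, miR-23a lower than in WT, which no other scaling gave. For the difference between the changes of the a and b copies, the 95% interval included 0 in all 6 comparisons.

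**Figure D1:**
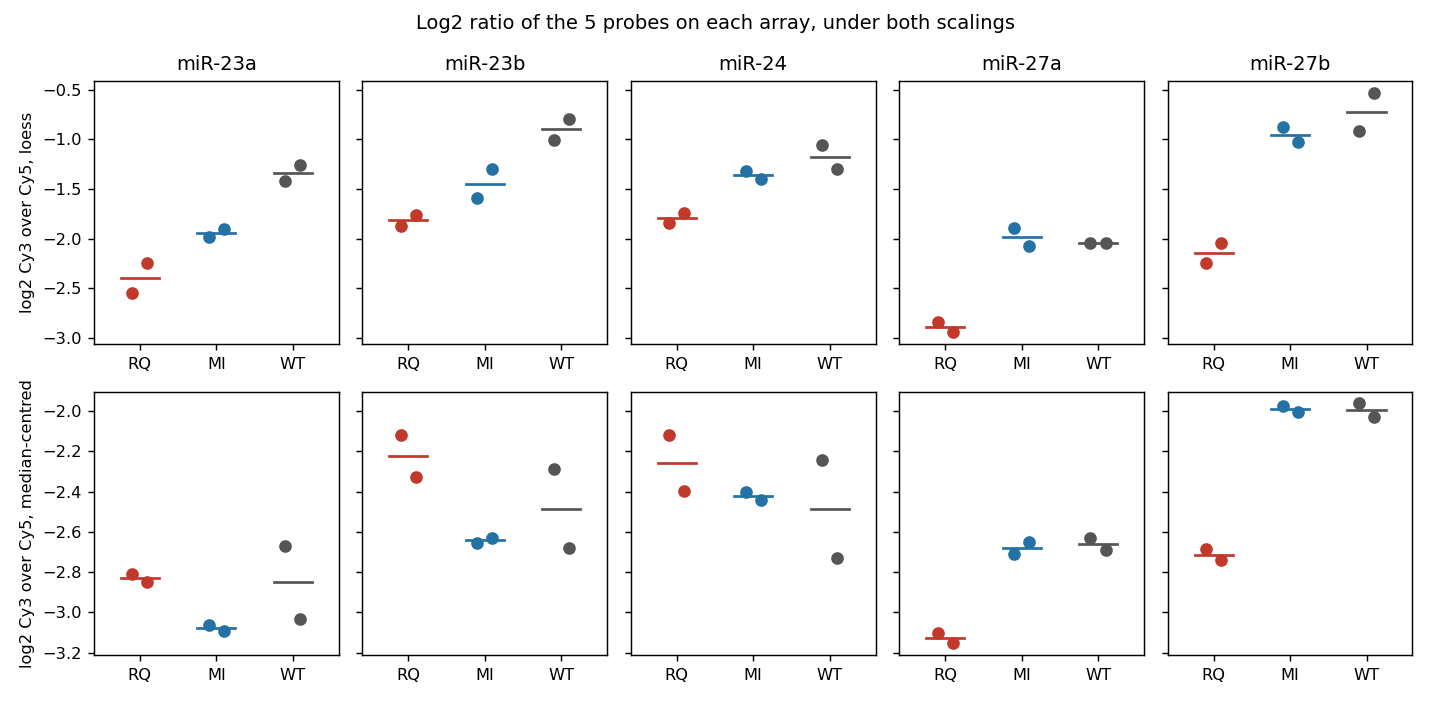
Log2 ratio of Cy3 over Cy5 for the 5 members after loess (top row) and after centring each array on its median (bottom row). Points are arrays, 2 per group, and lines are group means. Both RQ arrays lie below all MI and WT arrays for miR-27a and miR-27b in both rows, while miR-23a, miR-23b and miR-24 do so in the top row only.

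miR-27b had log2 ratios of -2.24 and -2.05 on the RQ arrays, -0.88 and -1.03 on the MI arrays, and -0.92 and -0.53 on the WT arrays. The RQ arrays were the lowest pair by more than 1 log2 unit and the MI and WT arrays overlapped. The change in RQ against WT was -1.42 ± 0.17 (log2, SE, n = 2 arrays per group; 95% interval -1.83 to -1.01), a 2.67-fold lower ratio, with an adjusted p of 0.00808 in limma. Among the 294 changes, ordered from the lowest, it ranked 3.

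miR-27a had log2 ratios of -2.84 and -2.95 on the RQ arrays, -1.89 and -2.08 on the MI arrays, and -2.04 and -2.05 on the WT arrays. Again the RQ pair stood alone at the bottom, and the WT pair lay within the range of the MI pair. The change in RQ against WT was -0.85 ± 0.12 (interval -1.13 to -0.56), a 1.80-fold lower ratio, with an adjusted p of 0.00808.

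The net Cy3 signals of both miR-27 copies were also lowest in RQ. The net Cy3 signal of miR-27b, the spot mean minus the local background in scanner units, was 312 and 323 on the RQ arrays, 464 and 519 on the MI arrays, and 633 and 521 on the WT arrays. For miR-27a it was 179.5 and 169 on the RQ arrays, 199.8 and 237.7 on the MI arrays, and 303 and 238 on the WT arrays. The RQ means were 0.551 times the WT mean for miR-27b and 0.644 times for miR-27a, on arrays where the median tested probe had 1.35 times its WT signal. Each RQ array was below every WT and MI array for both copies.

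**Figure D2:**
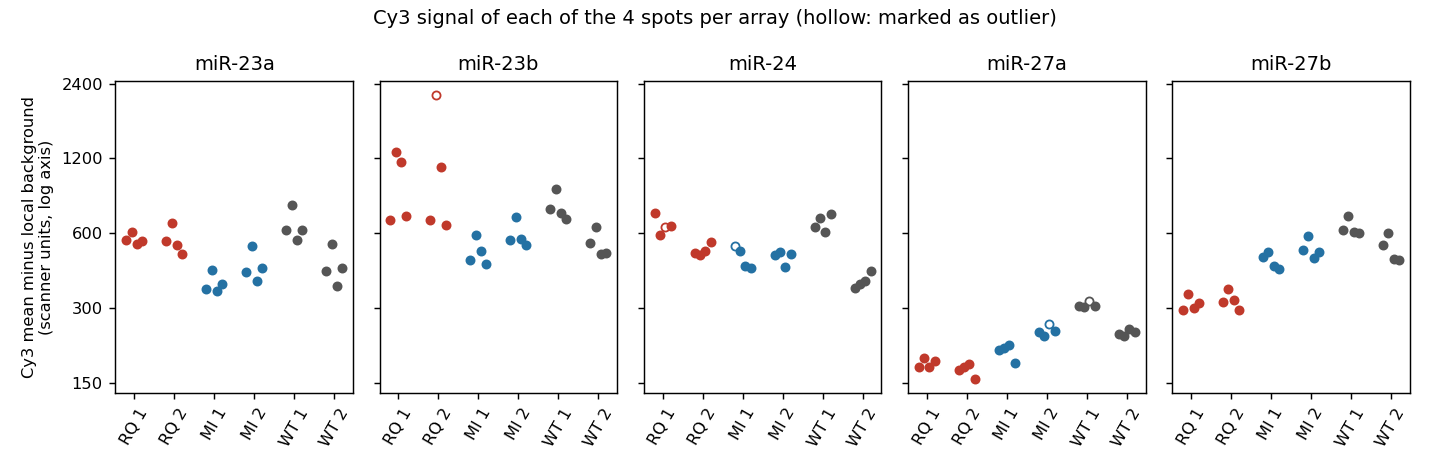
Net Cy3 signal of each of the 4 spots per array (log axis, scanner units) for the 5 members, with spots the scanner marked as outliers drawn hollow. The miR-27b spots lie between 293 and 358 on the RQ arrays and at 431 or higher on the MI and WT arrays, while the miR-23b spots on each RQ array fall into a lower and a higher pair.

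miR-23a had log2 ratios of -2.55 and -2.25 on the RQ arrays, -1.99 and -1.90 on the MI arrays, and -1.42 and -1.26 on the WT arrays. The groups did not overlap, with RQ lowest, MI between and WT highest. The change in RQ against WT was -1.06 ± 0.14 (interval -1.41 to -0.71), with an adjusted p of 0.00808 in limma.

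miR-23b had log2 ratios of -1.87 and -1.76 on the RQ arrays, -1.59 and -1.30 on the MI arrays, and -1.002 and -0.80 on the WT arrays. These groups had the same order and did not overlap. The change in RQ against WT was -0.92 ± 0.15 (interval -1.28 to -0.56), with an adjusted p of 0.0109 in limma.

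miR-24, the microRNA that both clusters encode, had log2 ratios of -1.85 and -1.74 on the RQ arrays, -1.32 and -1.40 on the MI arrays, and -1.05 and -1.30 on the WT arrays. RQ lay lowest, and the MI arrays lay just below the lower WT array. The change in RQ against WT was -0.62 ± 0.13 (interval -0.93 to -0.30), with an adjusted p of 0.0222 in limma. The call was lost without the first RQ, the second RQ or the first WT array (adjusted p = 0.141, 0.0722 and 0.0556).

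With loess, 5 of 5 members were thus lower in RQ than in WT, where 13.9% of all tested probes were called lower. Both RQ arrays lay below both WT arrays for all 5, as they did for 29.6% of the tested probes. The members' median change was -0.92, beside 0.04 over all 294. Without the first RQ array, 0 of 5 were called (limma, adjusted p 0.0523 to 0.141, all 5 at an unadjusted p under 0.05) and 5 of 294 probes were called in all.

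The net signals of miR-23a, miR-23b and miR-24 did not show the fall that the loess ratio gave. For miR-23a the net Cy3 signal was 568 and 563 on the RQ arrays, 377 and 443 on the MI arrays, and 646 and 442 on the WT arrays. For miR-23b it was 954 and 809 on the RQ arrays, 504 and 592 on the MI arrays, and 764 and 544 on the WT arrays. For miR-24 it was 651 and 513 on the RQ arrays, 462 and 482 on the MI arrays, and 662 and 384 on the WT arrays. In each case the RQ arrays were above the MI arrays and the WT pair was spread widely, so that WT overlapped RQ for miR-23a and miR-24. The RQ means were 1.04, 1.35 and 1.11 times the WT means for miR-23a, miR-23b and miR-24, all at or below the 1.35 times of the median tested probe.

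These 3 members belong to the bright probes, whose direction of change depended on the scaling. By average log2 intensity over both channels, miR-23b ranked 29, miR-23a 39, miR-24 47, miR-27b 60 and miR-27a 91 of 294, so 4 of 5 were among the 74 brightest probes. These 74 had a median RQ minus WT change of -0.62 with loess, with 32 of 74 called lower (43.2%) and 0 higher (limma). When each array was instead centred on its median, the 74 had a median change of 0.18, with 2 called lower and 15 higher. Over all 294 probes the RQ minus WT calls were 22 higher and 41 lower with loess, and 41 higher and 20 lower with median centring. The part that brightness plays in the fall of miR-23a, miR-23b and miR-24 was not tested beyond these scalings.

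**Figure D3:**
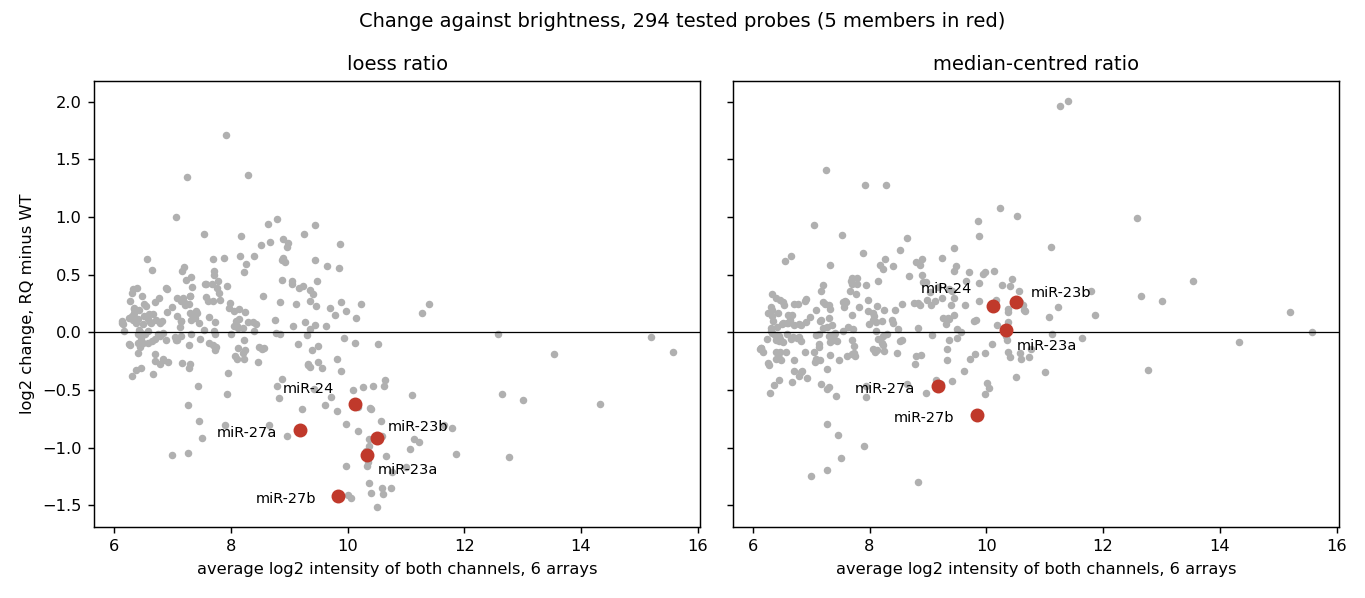
RQ minus WT change (log2) against average log2 intensity for the 294 tested probes, members in red, with the loess ratio on the left and the median-centred ratio on the right. On the left the 74 brightest probes have a median of -0.62 and all members lie below 0. On the right that median is 0.18, miR-27a and miR-27b stay below 0, and miR-23a, miR-23b and miR-24 lie at or above it.

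With median centring, miR-23a was at -2.81 and -2.85 on the RQ arrays, -3.06 and -3.09 on the MI arrays, and -2.67 and -3.03 on the WT arrays. Its RQ minus WT change was then 0.02 (limma, adjusted p = 0.914), that of miR-23b 0.26 (adjusted p = 0.248) and that of miR-24 0.23 (adjusted p = 0.359). The WT arrays of these 3 members differed from each other by more than any of these changes. miR-27b stayed apart, at -2.69 and -2.74 on the RQ arrays, -1.97 and -2.01 on the MI arrays, and -1.96 and -2.03 on the WT arrays. Its RQ minus WT change was -0.72 (adjusted p = 0.00191) and that of miR-27a was -0.46 (adjusted p = 0.0143).

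Both other scalings gave the same division of calls. With the scanner software's own processed signals, miR-27b was at -1.53 (limma, adjusted p = 0.00328) and miR-27a at -1.51 (adjusted p = 0.00394) in RQ minus WT. With Cy3 alone, quantile-normalised between arrays and without the reference channel, miR-27b was at -1.21 and miR-27a at -0.96 (both adjusted p = 0.00299). Under these settings miR-23a was at -0.60 and -0.33, miR-23b at -0.42 and -0.03, and miR-24 at -0.30 and -0.20, with adjusted p of 0.0897 to 0.796 and no call. Thus 2 of 5 members were called with each of these 3 scalings (median centring, processed signals, Cy3 alone), where 6.8%, 14.6% and 15.3% of all tested probes were called lower. At an unadjusted p under 0.05 in limma there were 2, 3 and 3 members in the same order.

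**Figure D4:**
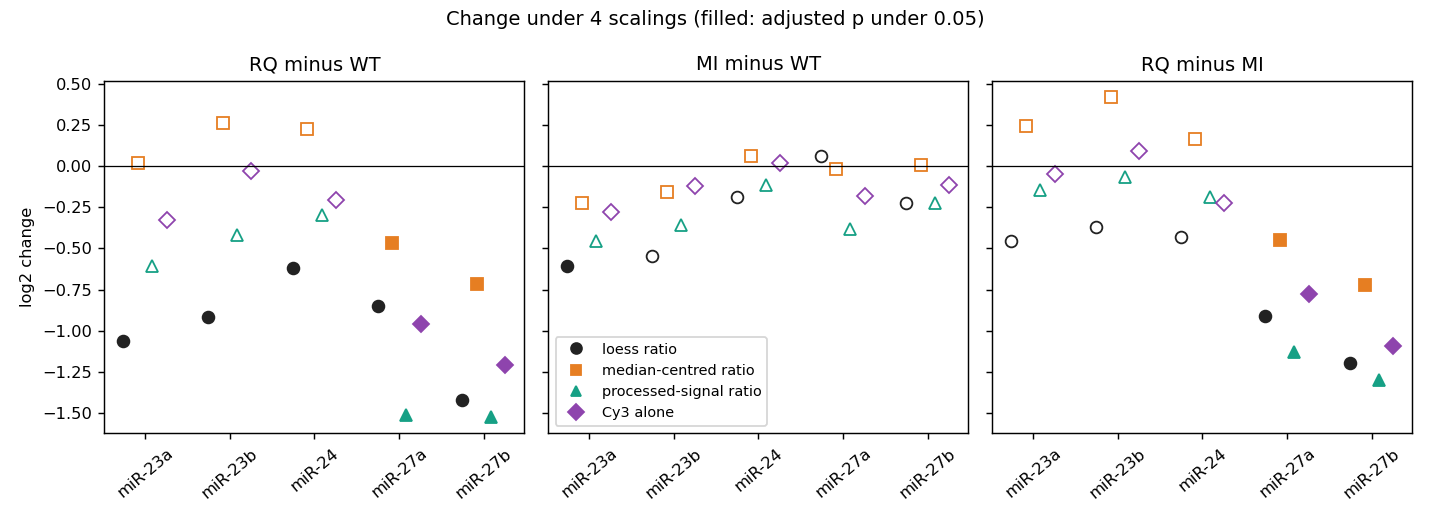
Log2 change of the 5 members under 4 scalings for RQ minus WT, MI minus WT and RQ minus MI, filled where the adjusted p is under 0.05. miR-27a and miR-27b are filled and negative under all 4 scalings in RQ minus WT and in RQ minus MI. miR-23a, miR-23b and miR-24 are filled in RQ minus WT with loess only.

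The reference channel was read the same way as a check, since the same RNA was in Cy5 on every array. Tested on Cy5 alone, the members' RQ minus WT changes lay between -0.13 and 0.05, and 0 of 5 were called in limma (2 at an unadjusted p under 0.05), beside 5.1% of all probes in either direction. The changes nearest to a call were -0.13 for miR-27a (adjusted p = 0.103) and -0.13 for miR-27b (adjusted p = 0.0927). Net Cy5 signals of miR-27b were 1456 and 1532 on the RQ arrays, 1701 and 1795 on the MI arrays, and 2056 and 1992 on the WT arrays, so they too were lowest in RQ, at 0.738 times WT. Those of miR-27a were 1158 and 1099 on the RQ arrays, 1299 and 1342 on the MI arrays, and 1650 and 1548 on the WT arrays, again lowest in RQ, at 0.705 times WT beside its Cy3 ratio of 0.644. The median tested probe was at 0.834 times WT in Cy5.

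The MI minus WT comparison shares the WT arrays with RQ minus WT. With loess, miR-23a was lower in MI by a change of -0.60 ± 0.14 (interval -0.95 to -0.25; limma, adjusted p = 0.0424). It was the 1 member called of 5, beside 6.46% of all tested probes called lower. Of the 5 members, 0 were called with median centring, processed signals and Cy3 alone (limma; 0, 0 and 1 at an unadjusted p under 0.05), where 8.5%, 7.82% and 8.5% of all tested probes were called lower. miR-23a was then at -0.23, -0.46 and -0.28, in that order (adjusted p = 0.259, 0.229 and 0.149). With loess it was also not called when any one of the 6 arrays was left out (adjusted p 0.0514 to 0.217). Both MI arrays lay below both WT arrays for 3 members, as for 22.8% of all tested probes.

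The other members had no call in MI minus WT. The changes were -0.55 ± 0.15 for miR-23b (limma, adjusted p = 0.0581), -0.19 ± 0.13 for miR-24 (adjusted p = 0.327), 0.06 ± 0.12 for miR-27a (adjusted p = 0.724) and -0.23 ± 0.17 for miR-27b (adjusted p = 0.357). The interval of the miR-27a change ran from -0.22 to 0.35 and that of miR-27b from -0.63 to 0.18. All 5 members had lower mean net Cy3 signals in MI than in WT, at 0.754 to 0.903 times, while the median tested probe was at 1.06 times.

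RQ was set against MI within a row of the slide. miR-27a changed by -0.91 ± 0.12 (interval -1.20 to -0.62; limma, adjusted p = 0.0146) and miR-27b by -1.19 ± 0.17 (interval -1.60 to -0.79; adjusted p = 0.0157). These were 2 of 5 members called lower, beside 7.82% of all tested probes, and miR-27b ranked 3 from the lowest of 294 changes here too. Both calls were also made with median centring (-0.45 and -0.72), processed signals (-1.13 and -1.30) and Cy3 alone (-0.78 and -1.09), where 4.42%, 5.44% and 7.14% of all tested probes were called lower. Without any one of the RQ or MI arrays the 2 changes stayed at -0.82 or lower, with adjusted p of 0.0649 to 0.119 and 0 members called (limma, unadjusted p under 0.05 for 2 to 4 of the 5); at most 1 of 294 probes was called in any of these fits.

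The remaining members were not called in RQ minus MI, at -0.46 ± 0.14 for miR-23a (limma, adjusted p = 0.104), -0.37 ± 0.15 for miR-23b (adjusted p = 0.173) and -0.43 ± 0.13 for miR-24 (adjusted p = 0.0947). With median centring these 3 had the opposite sign, at 0.25, 0.42 and 0.17. Both RQ arrays lay below both MI arrays with loess for all 5 members, as for 44.9% of all tested probes.

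The a and b copies were compared as the difference of their log2 ratios on each array, which is read between groups only. For miR-23 the a probe minus the b probe gave -0.68 and -0.49 on the RQ arrays, -0.40 and -0.60 on the MI arrays, and -0.41 and -0.46 on the WT arrays. The RQ arrays lay just below the WT arrays and the MI arrays spanned both WT arrays. The difference between groups was -0.14 for RQ minus WT, -0.06 for MI minus WT and -0.09 for RQ minus MI, with exact two-sided permutation p of 0.333, 1 and 0.667. With 2 against 2 arrays this test cannot go below 0.333, so a linear model over the 6 arrays (3 residual degrees of freedom) was added after the data were seen. Its 95% intervals were -0.52 to 0.23, -0.43 to 0.32 and -0.46 to 0.29 in the same order, all including 0. Over each array left out in turn, the RQ minus WT difference ranged from -0.24 to -0.05. Under the other scalings this difference was -0.24 with median centring, -0.19 with processed signals and -0.30 with Cy3 alone.

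For miR-27 the a probe minus the b probe gave -0.60 and -0.90 on the RQ arrays, -1.01 and -1.05 on the MI arrays, and -1.12 and -1.52 on the WT arrays. No groups overlapped, with RQ nearest to 0. The difference was 0.57 for RQ minus WT, 0.29 for MI minus WT and 0.28 for RQ minus MI, each at the permutation test's limit of 0.333 (exact; 0.5 after adjustment over the 6 comparisons of copies). The 95% intervals of the linear model were -0.07 to 1.22, -0.36 to 0.93 and -0.36 to 0.93 in the same order, so these too included 0. Leaving out each array moved the differences between 0.38 and 0.77 for RQ minus WT, between 0.09 and 0.48 for MI minus WT and between 0.13 and 0.44 for RQ minus MI. The RQ minus WT difference of 0.57 with loess was smaller under the other scalings, at 0.25 with median centring, 0.02 with processed signals and 0.25 with Cy3 alone. The MI minus WT difference turned to -0.03, -0.15 and -0.07 under these settings in the same order. The RQ minus MI difference was 0.28, 0.17 and 0.32 there, beside 0.28 with loess.

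**Figure D5:**
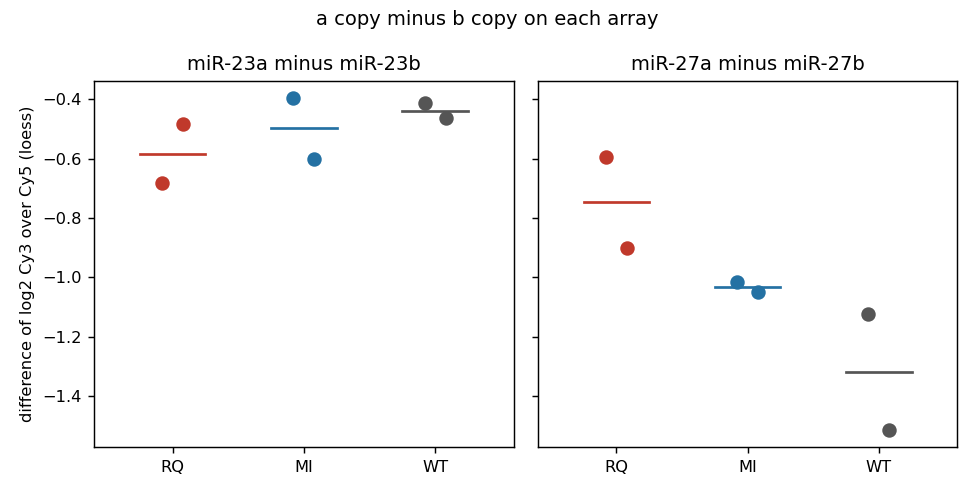
The a copy minus the b copy on each array (difference of log2 Cy3 over Cy5, loess), for miR-23 on the left and miR-27 on the right. Points are arrays and lines are group means. For miR-27 the RQ arrays lie at -0.90 and -0.60, above the WT arrays at -1.52 and -1.12, while the miR-23 groups lie between -0.68 and -0.40.

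Neighbours within a cluster were compared in the same way. This comparison was chosen after the values were seen and is given without a test. In the b cluster, the difference of miR-27b minus miR-23b was lower in RQ than in WT by 0.50 with loess, 0.98 with median centring, 1.11 with processed signals and 1.18 with Cy3 alone, and RQ and WT arrays did not overlap under any of the 4. Against MI it was lower by 0.82 to 1.24. In the a cluster, miR-27a minus miR-23a was lower in RQ than in WT by 0.49, 0.91 and 0.63 with median centring, processed signals and Cy3 alone. With loess it was higher by 0.21, and the arrays overlapped. Against MI it was lower by 0.45 to 0.98 under the 4 scalings, without overlap. In MI against WT with loess, miR-27a minus miR-23a was higher by 0.666 and miR-27b minus miR-23b by 0.319, both without overlap. With median centring, processed signals and Cy3 alone the first was higher by 0.207, 0.077 and 0.101, with overlap for processed signals. The second was higher by 0.165, 0.128 and 0.01, with overlap in each.

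The spots of miR-23b gave a limit on its value, and so on the differences of miR-27b and miR-23a from it. On the first RQ array these spots had net Cy3 signals of 676, 1272, 1161 and 706. On the second RQ array they had 679, 2155, 1104 and 644, of which 2155 was marked as an outlier by the scanner and left out. On the WT arrays the spots ran from 681 to 903 and from 493 to 634, and on the MI arrays from 452 to 588 and from 536 to 698. The same spot positions were high on both RQ arrays. Taken from the first and last spots alone the RQ minus WT change of miR-23b was -1.10. From the middle spots, with the outlier-marked spot kept, it was -0.55. RQ minus MI was -0.54 and -0.02 in the same order. Using the median of the 4 spots, a choice made after seeing the data, it was -0.80 in RQ minus WT (limma, adjusted p = 0.0138).

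Of 8 names for the second arms of the hairpins, 1 was on the array, miR-189, an older name for the 5′ arm of Mir24-1, which only the b cluster encodes. RefSeq also lists miR-24-2-5p with the same seed, and how much of the miR-189 probe's signal came from it was not tested. miR-189 is listed as miR-24-1-5p at chr13:63301213-63301235. It is shown here with its seed in capitals because it is the only listed second arm on the array.
miR-189: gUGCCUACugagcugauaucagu
Its log2 ratios were -0.996 and -1.05 on the RQ arrays, -0.74 and -1.001 on the MI arrays, and -0.64 and -0.67 on the WT arrays. The second MI array lay between the RQ arrays, and the WT arrays lay above all others. The RQ minus WT change was not called with loess (limma, adjusted p = 0.09) or processed signals (0.0658). Median centring and Cy3 alone did call miR-189 lower in RQ, where limma gave adjusted p of 0.0395 and 0.0477 in that order. No fold change is given, as 0 of the 3 spots used on each RQ array were well above background in Cy3, against 3 of 4 on each WT array. On the MI arrays it was 1 of 4 and 0 of 3. The spot left out as outlier-marked read 1054 and 456 on the RQ arrays and 139 on the second MI array. Net Cy3 means of the spots used were 59.7 and 68.3 in RQ, 54.9 and 49.7 in MI, and 69 and 52.9 in WT. Negative control spots had means of 93 and 103 in RQ, 43.8 and 59.4 in MI, and 59.4 and 43.8 in WT. The miR-189 signal was thus below these controls on both RQ arrays, so its calls concern a probe near the floor.

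Likeness of log2 ratios over the 6 arrays was ranked by Pearson's r among 293 other probes. The probes most alike differed between the families, and also between miR-27a and miR-27b. This is a description over arrays that share a reference and the loess curve. miR-23a was most like miR-130a (r = 0.984), miR-101a (0.983) and miR-15b (0.976), and miR-23b came before miR-15b at 0.979. miR-23b was most like miR-130a (0.989), miR-29a (0.988) and miR-101a (0.979). miR-27a was most like miR-365 and miR-148b (both 0.988), then miR-27b (0.948) and miR-484 (0.933). miR-27b was most like miR-125a (0.983), miR-27a (0.948), miR-107 (0.947) and miR-103 (0.946). miR-24 was most like miR-34b (0.953), miR-295 (0.951) and miR-301b (0.936). Among neighbours in a cluster, miR-24 stood at rank 9 for miR-27a (r = 0.888) and at rank 18 for miR-27b (0.894). Further down, miR-27a stood at rank 43 for miR-23a (0.737) and miR-27b at rank 27 for miR-23b (0.852).

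The other microRNAs known to be repressed by MYC in lymphoma cells gave a wider view of the group to which miR-23a and miR-23b belong. All 26 on the list were on the array and tested. In RQ minus WT with loess, 7 fell and 2 rose, with a median change of -0.19 beside 0.04 over all probes. These were 7 and 2 of 26, where 13.9% of all tested probes were called lower and 7.48% higher. The largest falls were -1.41 for miR-26a (limma, adjusted p = 0.00808), -1.21 for miR-29a (adjusted p = 0.0197) and -1.17 for miR-16 (adjusted p = 0.0241), while let-7d at -0.90 (adjusted p = 0.0879) and miR-29b at -0.81 (adjusted p = 0.09) were not called. With median centring 0 fell and 3 rose, with a median of 0.11, where 6.8% of all probes were called lower and 13.9% higher, so the direction of the list's calls depended on the scaling.

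In MI minus WT, 2 of the 26 fell and 1 rose with a median change of -0.13, namely miR-26a at -1.38, miR-26b at -1.23 and miR-497 at 0.53, where 6.46% of all tested probes were called lower and 9.18% higher. With median centring 6 fell and 1 rose with a median change of 0.07, where 8.5% were called lower and 6.46% higher. In RQ minus MI, 1 fell and 2 rose with a median change of -0.21, namely let-7g at -1.07, miR-26b at 1.46 and miR-34a at 0.79, where 7.82% of all probes were called lower and 3.06% higher. With median centring 0 fell and 4 rose with a median change of 0.12, where 4.42% were called lower and 6.46% higher.

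Markers of cell types that embryoid bodies can hold were measured beside the members. Calls here are for RQ minus WT with loess, where 13.9% of all tested probes were called lower and 7.48% higher. Of 3 endothelial markers tested, 0 were called (limma; miR-221 came nearest at 0.45, adjusted p = 0.0673, and was called with median centring at 0.57, adjusted p = 0.0468). miR-126-5p was above background in Cy3 on 0 arrays, and the endothelial markers' summed net Cy3 signal was 620 to 711 on the RQ arrays, 433 to 478 on the MI arrays and 424 to 538 on the WT arrays. Of 5 muscle and heart markers, 2 fell and 0 rose, with sums of 2542 to 3378 in RQ, 2003 to 2867 in MI and 1363 to 1409 in WT, and the heart microRNA miR-208 was above background in Cy3 on 0 arrays. Of 5 mesenchymal markers 1 fell, with sums of 3380 to 3734 in RQ, 2116 to 2733 in MI and 1438 to 1999 in WT. Of 5 blood markers 1 rose and 1 fell, with sums of 1183 to 1235 in RQ, 972 to 1101 in MI and 999 to 1043 in WT, and of 7 stem cell markers 3 fell, with sums of 61952 to 64737 in RQ, 45578 to 58697 in MI and 46098 to 81761 in WT. With median centring the calls were 1 higher and 0 lower for endothelial, 1 and 1 for muscle and heart, 1 and 0 for mesenchymal, 2 and 0 for blood and 0 and 1 for stem cell markers. The endothelial, muscle and heart, mesenchymal and blood sums were thus all higher on both RQ arrays than on both WT arrays. The stem cell sums of RQ lay within the range of the WT arrays. All these sums are net signals not scaled between arrays, and the median tested probe itself had 1.35 times its WT signal in Cy3. They therefore do not show a rise of these markers beyond that of the arrays. The part of cell makeup in the miR-27 result was not tested.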

How the data were processed

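Per the file headers, Agilent Feature Extraction (version 9.5.1.1) produced the deposited scanner files. Per the file headers, each spot and dye has a deposited mean intensity, median local background intensity and processed intensity, the last background-corrected and dye-normalised by the scanner software; no source used here gives the dye method. The log10 ratio the authors deposited per spot is Cy5 over Cy3, per the file headers. Their value table equalled minus that log10 ratio (1932 rows, largest difference 0) and entered no test.

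Intensities were corrected with normexp (offset 50) and loess within each array, with weight only on unmarked mouse spots (limma 3.58.1, R 4.3.3), and unmarked spots of a probe were averaged. The tested 294 probes had a share above 0.5 of spots well above background, in Cy3 or in Cy5, on 2 arrays or more. Comparisons used lmFit and eBayes over the 6 arrays (3 residual and 2.99 prior degrees of freedom) and Benjamini-Hochberg adjustment. The fit was tested on simulated ratios with independent noise and no trend with brightness, which cannot bear on the choice of scaling. The number of arrays limits the precision. Alternatives were median centring, processed signals, Cy3 alone, offset 16, keeping outlier-marked spots, no filter, the median of 4 spots, the 2 groups alone, a replicate block and leaving out each array; a linear model of the copy differences was added after seeing the data.

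The members, lists and tests were chosen with earlier results of these data known. Named microRNAs are the 5 members, the 3 other probes most alike to each, and of each list the 3 largest called changes with up to 2 uncalled. miR-126-5p, miR-208 and miR-221 were named after their values were seen. Sequences and coordinates are from RefSeq, GRCm38.p6, matched by name.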

Additional observations from a re-analysis of the deposited data

Results flagged for a closer look

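The changes of both miR-27 copies differed between the mutants, by a test of the difference itself. The RQ change minus the MI change, which equals RQ minus MI, was -0.91 for miR-27a (limma, adjusted p = 0.0146) and -1.19 for miR-27b (adjusted p = 0.0157). Against WT, miR-27a was at -0.85 in RQ and 0.06 in MI, and miR-27b at -1.42 in RQ and -0.23 in MI. The difference was also called with median centring, processed signals and Cy3 alone, and was not called when any one RQ or MI array was left out (adjusted p 0.0649 to 0.119).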

How the results depend on the processing

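With median centring, processed signals and Cy3 alone, the members called were 2 in RQ minus WT (main 5) and 0 in MI minus WT (main 1; 0, 0 and 1 at an unadjusted p under 0.05 in limma), and in RQ minus MI they were the same 2. Offset 16 and the replicate block gave 2 calls in MI minus WT, adding miR-23b (adjusted p = 0.0325 and 0.0443), and using the 2 groups alone gave 0 members and 27 of 294 probes (main 46). Keeping outlier-marked spots gave 14 calls among all probes in RQ minus MI (main 32). Leaving out each array, members called ranged from 0 to 5 in RQ minus WT, 0 to 0 in MI minus WT (limma, 1 to 3 at an unadjusted p under 0.05) and 0 to 2 in RQ minus MI. All probes called ranged from 5 to 60, 6 to 63 and 0 to 48, against 63, 46 and 32, and the 0 had 47 or more at an unadjusted p under 0.05. Signs turned with median centring for miR-23a, miR-23b and miR-24 in RQ minus WT (0.022, 0.262 and 0.229) and in RQ minus MI (0.247, 0.42 and 0.166), and for miR-24, miR-27a and miR-27b in MI minus WT (0.063, -0.019 and 0.0067). In MI minus WT, miR-27a turned to -0.38 with processed signals, -0.18 with Cy3 alone, -0.016 with offset 16 and -0.029 without the first MI array (-0.029 to 0.154 over the arrays left out), and miR-24 to 0.017 with Cy3 alone; in RQ minus MI, miR-23b turned to 0.092 with Cy3 alone. The miR-27 copy difference in MI minus WT turned to -0.025 with median centring, -0.153 with processed signals and -0.066 with Cy3 alone. Leaving out arrays, the miR-23 copy difference ranged from -0.161 to 0.044 in MI minus WT and from -0.188 to 0.017 in RQ minus MI. The cause of these moves was not tested.

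The replicate numbers were not taken as pairs: deviations of same-numbered arrays correlated at 0.119 (RQ and WT), 0.182 (MI and WT) and 0.041 (RQ and MI). With the replicate block, 59, 39 and 38 of 294 probes and 5, 2 and 2 members were called in RQ minus WT, MI minus WT and RQ minus MI. Share of rises among calls moved with the scaling: in MI minus WT from 27 higher and 19 lower to 19 and 25 with median centring, 9 and 23 with processed signals and 10 and 25 with Cy3 alone, and in RQ minus MI from 9 and 23 to 19 and 13, 11 and 16, and 15 and 21. With 2 arrays per group and no dye swap, dye bias could not be separated from the ratios. Slide row could not be separated from the comparisons with WT, while RQ and MI shared a row.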
